A study of Caenorhabditis elegans with 58 samples.

Results

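mir-243 is a single hairpin that gives 2 measured arms, mir-243_3p and mir-243_5p. These 2 rows were taken by name from the 276 miRNA arms of the deposited count table and followed through all 58 libraries. The 3p arm is the guide strand, the one that Argonaute proteins keep, and the 5p arm is its partner on the other side of the hairpin (the star strand). The deposited annotation (ce11) places the hairpin on chromosome IV at 4450798-4450861 on the plus strand, with the 5p arm at 4450798-4450820 and the 3p arm at 4450839-4450861, each 23 bases long. The same bases in the Ensembl annotation of WBcel235 lie inside an intron of R08C7.12 (4450211-4451572), a gene read in the same direction.

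Most animal miRNAs pair with their targets through a short seed and lower expression without cutting the mRNA. mir-243 of C. elegans is a known exception: its guide pairs along nearly its whole length with the mRNA of Y47H10A.5, a gene on chromosome I, and is found partly in RDE-1, an Argonaute of the RNA interference pathway, where it starts the making of secondary small interfering RNAs from that transcript. ALG-1 and ALG-2 are the main miRNA Argonautes of the worm. Their DEDH catalytic residues can cut an RNA that pairs extensively with the loaded strand, including the star strand of a perfectly paired duplex. EBAX-1, the worm homologue of ZSWIM8, is a ubiquitin ligase receptor that lets certain targets bring about the decay of the miRNA bound to them.

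Small RNAs of whole hermaphrodites were sequenced in 3 experiments, with 3 or 4 libraries in each of 15 groups. Double AEDH animals (strain MCJ275) carry alg-2(cdb155) II and alg-1(cdb153) X, in which the DEDH residues of both Argonautes are changed to AEDH. Experiment 1 compared double AEDH with the wild type N2 in mixed embryos and young adults (4 libraries a group) and in L4 larvae (3 libraries a group). Experiment 2 used young adults, 4 libraries a group, of 6 genotypes. These were ebax-1(tm2321) IV with double AEDH (MCJ354), ebax-1(tm2321) IV alone (CZ9907, the ebax-1 null), a deletion of the mir-243 binding site in Y47H10A.5 with double AEDH (MCJ352, allele cdb190), the site deletion alone (MCJ350, allele cdb188), double AEDH, and N2. Experiment 3 compared embryos with alg-1(cdb153) alone (MCJ277) and embryos with alg-2(cdb155) alone (MCJ288) with N2 embryos, 4 libraries each. The site deletion with and without double AEDH is thus a different allele of the same site. Embryos were collected by hypochlorite treatment at 20 °C. L4 larvae came from 48 h of growth at 20 °C and young adults from 44 h at 25 °C. Stage and temperature thus cannot be told apart between young adults and either L4 larvae or embryos.

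Each library held between 4806021 and 21076794 miRNA-arm counts, and experiment 3 was the shallowest (at most 6768897). Levels are CPM values, counts scaled to a common total of miRNA-arm counts in each library, and 3 counts, the limit that a count of 0 allows, correspond to 0.142 to 0.624 CPM across libraries. Stage labels were checked on defining miRNAs. let-7_5p, which comes on in larvae, lay between 2.99 and 53.8 CPM in embryo libraries and at 8693 CPM or more in all L4 and adult libraries. The embryonic mir-35_3p reached at least 94085 CPM in embryos and at most 2591 CPM in L4 larvae. Small RNA libraries do not measure the mRNAs of alg-1, alg-2, ebax-1 or Y47H10A.5, so those genotypes could not be checked on the altered genes themselves. mir-42_3p, a mir-35 family member, was higher in ebax-1 null than in wild-type young adults (log2 fold change 3.71, edgeR adjusted p = 1.2e-11). It was the only 1 of the 8 guides of mir-35 to mir-42 that passed there, and their median was 0.12. In that comparison 21.7% of 226 arms passed. The labels do not say that libraries came from separate cultures, so the p-values below measure the spread between these libraries.

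The guide of mir-243 was a moderately abundant miRNA, with group means from 60.4 to 588 CPM. It ranked 54th to 61st of the 276 arms in wild-type L4 larvae and 103rd to 109th in double AEDH embryos. Group means of mir-243_3p fell in this order: wild-type L4 larvae at 588 ± 24.4 CPM (SD, n = 3), wild-type young adults of experiment 2 at 416 ± 111 CPM (n = 4) and those of experiment 1 at 374 ± 66.5 CPM (n = 4), site-deletion adults at 365 ± 61.1 CPM (n = 4), double AEDH L4 larvae at 349 ± 16.6 CPM (n = 3), and ebax-1 null adults at 337 ± 73.8 CPM (n = 4). The 4 groups of adults with double AEDH came next, between 189 ± 51.6 and 214 ± 53.1 CPM (n = 4 each), interleaved with the 3 embryo groups of experiment 3, between 176 ± 9.54 and 189 ± 22.6 CPM (n = 4 each). Embryos of experiment 1 were lowest, wild type at 90.7 ± 14.3 CPM and double AEDH at 60.4 ± 4.46 CPM (n = 4 each). Neighbours in this order had ranges that did not overlap at 4 places only: below wild-type L4 larvae, below the ebax-1 null, below the alg-2 AEDH embryos, and between the wild-type and double AEDH embryos of experiment 1. The wild-type embryos of experiments 1 and 3 differed (79.4 to 111 CPM and 171 to 219 CPM). let-7_5p also differed between them, at 36.7 to 53.8 CPM in experiment 1 and 2.99 to 9.78 CPM in experiment 3, and its part in the mir-243 difference was not tested.

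**Figure D1:**
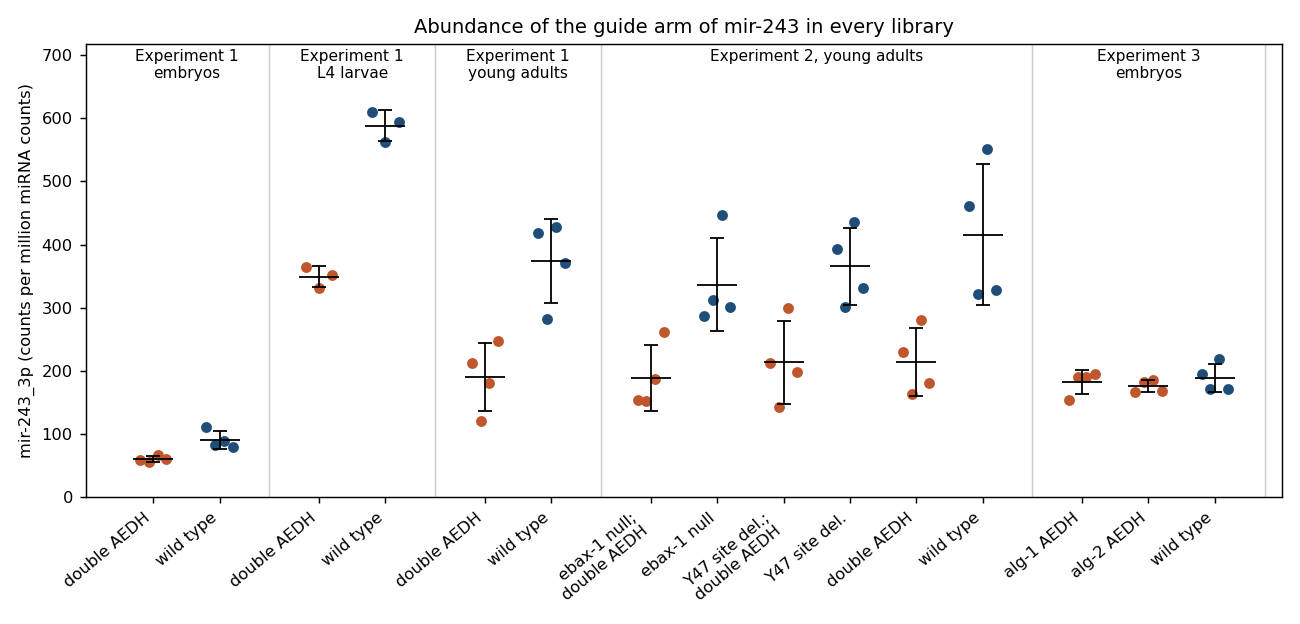
Level of mir-243_3p in each of the 58 libraries in CPM, one point per library, with the group mean and SD; orange marks groups with an AEDH allele and blue the groups without. The orange groups of experiments 1 and 2 sit below the blue group of the same stage and background, while in experiment 3 all groups lie between 154 and 219 CPM.

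The guide rose between embryo and L4. In wild type, mir-243_3p had 561.6, 594 and 609 CPM in the 3 L4 libraries, against 79.4, 82.6, 89.8 and 111 CPM in the embryo libraries. The groups stood far apart, and in whole animals fewer cells that make the miRNA and less of it per cell cannot be told apart (log2 fold change 2.29, 95% confidence interval 1.91 to 2.67, edgeR adjusted p = 3.6e-10). Such a change was common between these stages, since 79.4% of 238 arms passed in either direction and 51.7% were higher in L4 without overlap. mir-243_5p averaged 6.20 ± 1.34 CPM in L4 larvae and 1.09 ± 0.377 CPM in embryos (n = 3 and 4), and the groups did not overlap. Its 9 to 24 counts in wild-type embryo libraries did not pass the filter on low counts for embryos alone, so levels of this arm are set beside embryos without a test.

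Wild-type young adults had less guide than L4 larvae but more than embryos. Their libraries held 282, 371, 418 and 427 CPM of mir-243_3p, all below the 3 L4 libraries. The embryonic mir-35_3p lay between 24606 and 42531 CPM in these young adults and between 2348 and 2503 CPM in the L4 larvae, and its part in the guide's change was not tested. The log2 fold change of young adults over L4 larvae was -0.53 (95% confidence interval -0.91 to -0.16, edgeR adjusted p = 0.0194), where 42.4% of 238 arms passed and 35.7% were lower without overlap. This call was lost when either of 2 L4 libraries (replicates 1 and 3) or young adult replicate 2 was left out, with adjusted p up to 0.0814, and scaling to the spike-ins gave -1.03. Young adults over embryos gave a log2 fold change of 1.76 (1.40 to 2.11, edgeR adjusted p = 8.9e-09), where 81.9% of arms passed and 47.9% were higher without overlap. With spike-in scaling this was 0.87 and the median over all arms moved to -0.78, against 0.13 with the standard scaling. The 5p arm was 4.40 ± 1.02 CPM in wild-type young adults (n = 4), above every wild-type embryo library, and over L4 larvae its log2 fold change was -0.37 (edgeR adjusted p = 0.412).

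In double AEDH animals too the guide was highest in L4 larvae and lowest in embryos. mir-243_3p had 331, 352 and 364 CPM in double AEDH L4 larvae and 56.2, 58.6, 60.1 and 66.6 CPM in double AEDH embryos (log2 fold change 2.11, edgeR adjusted p = 1.2e-09, with 81.9% of 238 arms passing). Double AEDH young adults held 121, 182, 212 and 248 CPM, which lay below every double AEDH L4 library (log2 fold change -0.81, edgeR adjusted p = 0.0010) and above every double AEDH embryo library (log2 fold change 1.301, edgeR adjusted p = 5.9e-07). mir-35_3p lay between 11967 and 59386 CPM in these young adults and between 1784 and 2591 CPM in double AEDH L4 larvae, and its part was not tested here either. For L4 over embryo 49.6% of arms were higher without overlap; for young adults over L4 38.7% passed and 23.5% were lower without overlap, and over embryos 84% passed and 42.4% were higher without overlap. The stage change of the guide did not pass as different between the genotypes. The interaction was -0.18 for L4 over embryo (95% confidence interval -0.71 to 0.35, edgeR adjusted p = 0.943, 0.42% of 238 arms passing) and -0.46 for young adult over embryo (-0.95 to 0.035, edgeR adjusted p = 0.722, 1.26% passing). It was -0.27 for young adult over L4 (-0.80 to 0.26, edgeR adjusted p = 0.944), where 0 of 238 arms passed with edgeR or with DESeq2 and 3 had an unadjusted p under 0.05.

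The 5p arm was close to the detection limit in double AEDH embryos, at 0.309 ± 0.252 CPM (n = 4), which is 1 to 10 counts a library. It averaged 4.58 ± 1.69 CPM in double AEDH L4 larvae (n = 3) and 5.07 ± 0.504 CPM in double AEDH young adults (n = 4), and no library of these later stages overlapped the embryos. Such a separation was common, since 49.6% of 238 arms were higher without overlap in L4 larvae and 42.4% in young adults. Between double AEDH young adults and L4 larvae the log2 fold change was 0.22 (edgeR adjusted p = 0.634).

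**Figure D2:**
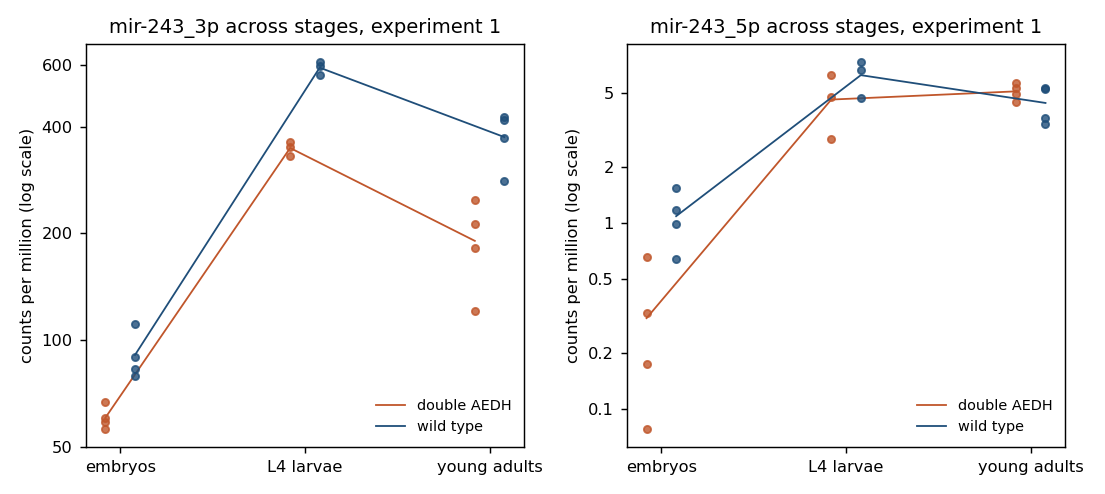
Levels of mir-243_3p (left) and mir-243_5p (right) in experiment 1 in CPM on a log scale, one point per library, with lines through the group means. The guide is highest in L4 larvae in both genotypes, and the 5p arm of double AEDH embryos lies lowest, at 0.0789 to 0.654 CPM.

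Replacing the slicing residues of both Argonautes went with less guide at every stage of experiment 1. In young adults mir-243_3p held 121, 182, 212 and 248 CPM in double AEDH, against 282, 371, 418 and 427 CPM in wild type. The groups did not overlap, which 6.36% of 220 arms also showed in this direction. The log2 fold change was -0.98 (95% confidence interval -1.48 to -0.48, the 4th lowest of 220 arms). Its edgeR adjusted p was 0.0634, just outside the threshold of 0.05, which 1.36% of arms passed. Same-numbered libraries deviated together in this comparison, and the fit with the replicate number as a block passed at -0.996 (edgeR adjusted p = 0.0035). It also passed without double AEDH replicate 1 or 4 (adjusted p = 0.0448 and 0.0473) and with DESeq2 (adjusted p = 4.0e-04). With spike-in scaling the adjusted p was 0.696.

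In L4 larvae the guide fell in double AEDH by 0.75 on the log2 scale (95% confidence interval of the change -1.04 to -0.46, edgeR adjusted p = 0.0122), where 4.93% of 223 arms passed. Its 3 libraries at 331, 352 and 364 CPM lay below the 3 wild-type libraries at 561.6, 594 and 609 CPM, a separation seen downward in 11.7% of arms. The same-numbered ratios were nearly constant at 0.597, 0.589 and 0.592. The call was lost on leaving out any wild-type library or double AEDH replicate 1 (adjusted p up to 0.0905) and with spike-in scaling (adjusted p = 0.206), although the log2 fold change stayed between -0.79 and -0.71.

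In embryos of experiment 1 the guide fell by 0.64 (95% confidence interval of the log2 change -1.03 to -0.25, edgeR adjusted p = 0.0457), where 11.3% of 212 arms passed. Double AEDH libraries had 56.2, 58.6, 60.1 and 66.6 CPM, against 79.4, 82.6, 89.8 and 111 CPM in wild type, without overlap, as in 5.19% of arms in this direction. Leaving out any library other than wild-type replicate 4 lost the call, and without wild-type replicate 1, the highest library, the log2 fold change was -0.45 (adjusted p = 0.0758). lin-4_5p, a larval miRNA, ranged from 5.23 to 90.4 CPM in double AEDH embryos and from 5.98 to 164 CPM in wild-type embryos, and its part in the result was not tested.

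**Figure D3:**
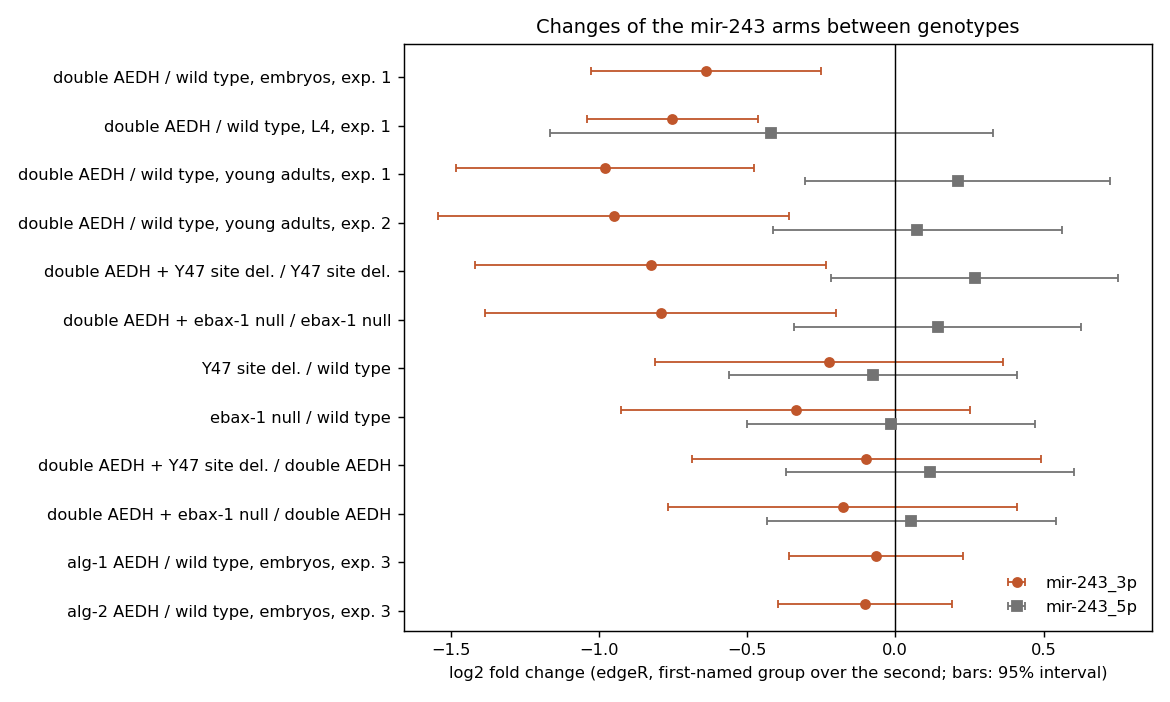
Log2 fold changes of mir-243_3p (orange) and mir-243_5p (grey) between genotypes with 95% confidence intervals from edgeR; the first-named group is over the second. The 6 comparisons of double AEDH lie between -0.98 and -0.64 for the guide with intervals below 0, while intervals of the 5p arm, of the site deletion, of the ebax-1 null and of the single Argonaute mutants cross 0.

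Young adults of experiment 2 gave nearly the same guide difference again. mir-243_3p held 163, 181, 231 and 281 CPM in double AEDH, against 321, 328, 461 and 552 CPM in wild type. The log2 fold change was -0.95 (95% confidence interval -1.54 to -0.36, edgeR adjusted p = 0.0395), where 7.96% of 226 arms passed and 10.6% were lower without overlap. Same-numbered libraries gave ratios of 0.501, 0.508, 0.510 and 0.553, a narrower range than the levels themselves. mir-35_3p was also lower without overlap in this comparison, at 17043 to 21650 CPM in double AEDH and 27737 to 32140 CPM in wild type, and its part in the guide's difference was not tested. In young adults of experiment 1 its ranges overlapped, at 11967 to 59386 CPM in double AEDH and 24606 to 42531 CPM in wild type. Leaving out wild-type replicate 1 or 3, or double AEDH replicate 1, 2 or 4, lost the call, with adjusted p up to 0.188 and a log2 fold change no nearer 0 than -0.77.

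Deleting the mir-243 site in Y47H10A.5 asks whether the guide's level depends on this extensively paired target. Site-deletion adults held 301, 331, 394 and 436 CPM of mir-243_3p, against 321, 328, 461 and 552 CPM in wild type. The ranges overlapped and the log2 fold change was -0.22 (95% confidence interval -0.81 to 0.36, edgeR adjusted p = 0.965). None of the 226 arms passed: 0 with edgeR and 0 with DESeq2, with 19 at an unadjusted p under 0.05. The interval leaves room for a fall to 0.571 of wild type or a rise to 1.29 times its level.

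With the AEDH residues on both sides of the comparison the site deletion did not pass either. The site deletion with double AEDH held 143, 199, 212 and 300.4 CPM, against 163, 181, 231 and 281 CPM in double AEDH alone, with overlapping ranges (log2 fold change -0.097, 95% confidence interval -0.69 to 0.49, edgeR adjusted p = 0.988), and the sign turned without replicate 2 or 4 of the site deletion with double AEDH or replicate 1 or 3 of double AEDH alone. Here too 0 of 226 arms passed with edgeR and with DESeq2, and 7 had an unadjusted p under 0.05.

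The guide was lower with double AEDH in animals that lacked the site as well. Site-deletion animals with double AEDH, at 143 to 300.4 CPM, lay just below those without, at 300.6 to 436 CPM, and 6.64% of 226 arms were lower in this way. The log2 fold change was -0.83 (95% confidence interval -1.42 to -0.23). It did not pass with edgeR (adjusted p = 0.0984), where 7.08% of arms did. All same-numbered libraries were lower with double AEDH, at ratios of 0.539, 0.475, 0.689 and 0.600, and the fit with the replicate block gave -0.87 (edgeR adjusted p = 0.0091). The effect of double AEDH did not pass as different with and without the site (interaction 0.12, 95% confidence interval -0.71 to 0.96, edgeR adjusted p = 0.981). No arm passed that interaction (0 of 226 with edgeR, 0 with DESeq2, 11 at an unadjusted p under 0.05), and its sign for the guide turned without wild-type replicate 3, double AEDH replicate 2 or replicate 3 of the site deletion with double AEDH.

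The guide was also compared between ebax-1 null and wild-type adults, and whether target-directed decay sets its level was not tested. ebax-1 null adults held 287, 302, 312 and 446 CPM of mir-243_3p, against 321, 328, 461 and 552 CPM in wild type. The ranges overlapped, with a log2 fold change of -0.34 (95% confidence interval -0.92 to 0.25, edgeR adjusted p = 0.497), while 21.7% of 226 arms passed. The sign depended on scaling: with spike-ins it was 0.36 (adjusted p = 0.216), and the median of all arms was then 0.75. Spike-in counts were 5.97 to 10.7% of miRNA-arm counts in ebax-1 null libraries and 9.62 to 13.8% in wild type.

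In the double AEDH background, ebax-1 null adults held 152, 154, 188 and 262 CPM, against 163, 181, 231 and 281 CPM in double AEDH alone. These overlapped (log2 fold change -0.18, 95% confidence interval -0.77 to 0.41, edgeR adjusted p = 0.821, 15.9% of 226 arms passing), and the sign turned with spike-in scaling (0.33) and without double AEDH replicate 3 (0.063). Within ebax-1 null animals, those 4 libraries with double AEDH lay below the 287 to 446 CPM of those without, as 5.31% of arms did. The log2 fold change was -0.79 (95% confidence interval -1.38 to -0.20, edgeR adjusted p = 0.0793, 11.1% of arms passing), and it passed with DESeq2 (adjusted p = 0.0483), with spike-in scaling (adjusted p = 0.0156) and without replicate 4 of the ebax-1 null with double AEDH (-1.12, adjusted p = 0.0141). The interaction with ebax-1 was 0.16 (95% confidence interval -0.67 to 0.99, edgeR adjusted p = 0.978, 0.885% of arms passing), and its sign turned without wild-type replicate 3, double AEDH replicate 2 or replicate 4 of the ebax-1 null with double AEDH. Comparisons of experiment 2 share their wild-type and double AEDH libraries.

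**Figure D4:**
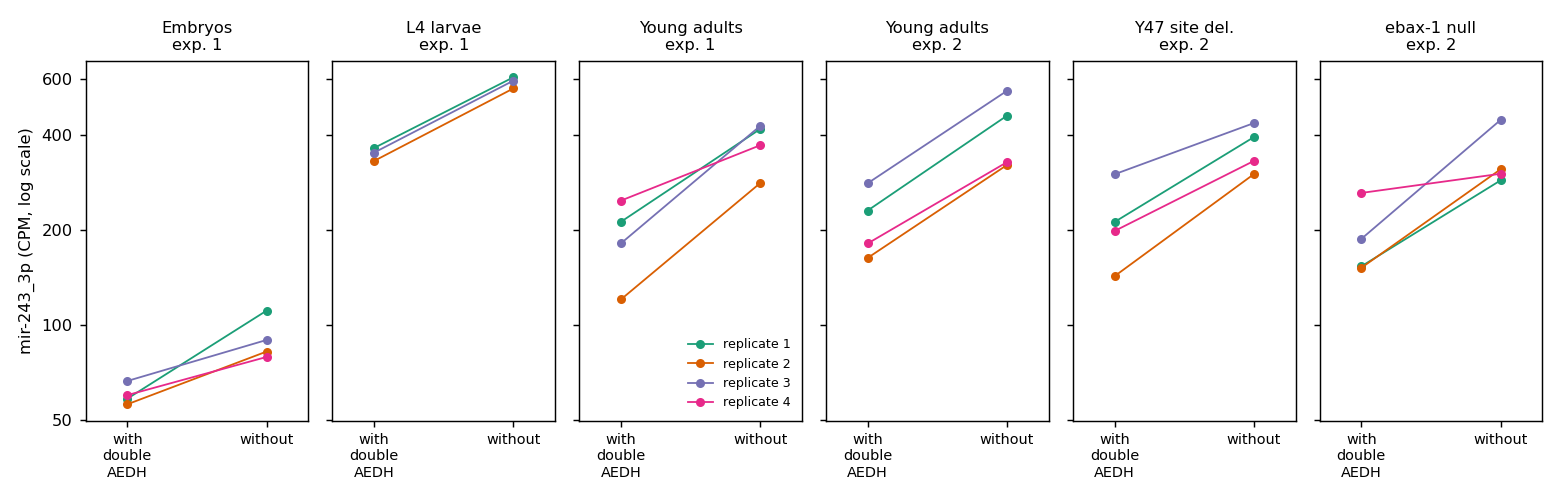
Level of mir-243_3p in CPM on a log scale with and without double AEDH, with lines joining libraries of the same replicate number. Every line is lower at its double AEDH end, with ratios between 0.420 and 0.869, and in experiment 2 replicate 3 is the highest library in all groups but the ebax-1 null with double AEDH.

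Set beside other guide arms, mir-243_3p lay near the low end of the double AEDH comparisons. It had the 4th lowest log2 fold change of 128 guide arms tested in young adults of experiment 1, the 9th of 128 in L4 larvae, the 8th of 126 in embryos and the 4th of 130 in young adults of experiment 2. Guide arms called lower and higher numbered 1 and 0 in those young adults, 6 and 0 in L4 larvae, 7 and 1 in embryos, and 7 and 1 in experiment 2. Star arms called lower and higher numbered 0 and 2 of 90, 1 and 3 of 93, 0 and 16 of 85, and 4 and 5 of 94 in the same order. Over all arms, 1.36% of 220, 4.93% of 223, 11.3% of 212 and 7.96% of 226 passed in either direction, again in that order. In embryos the median log2 fold change was -0.084 over guide arms and 0.44 over star arms, beside -0.025 over all arms. Of the 8 guides of mir-35 to mir-42, the family known for decay through EBAX-1, 1 passed in the ebax-1 null over wild type (mir-42_3p). There 21.7% of all 226 arms passed, and the median of the 8 was 0.12, beside -0.014 over all arms. None of the 8 passed with edgeR for double AEDH over wild type in any of these 4 comparisons, where their lowest adjusted p were 0.706, 0.447, 0.620 and 0.180. The median log2 fold change of the 8 was -0.19, -0.020, -0.061 and -0.60 in the same order, beside 0.054, 0.013, -0.025 and 0.062 over all arms.

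Embryos with only 1 of the 2 Argonautes altered showed no detectable fall of the guide. mir-243_3p held 154, 190, 190 and 195 CPM in alg-1 AEDH embryos, against 171, 172, 195 and 219 CPM in wild type (log2 fold change -0.066, 95% confidence interval -0.36 to 0.23, edgeR adjusted p = 0.995, 0.508% of 197 arms passing). alg-2 AEDH embryos held 167, 169, 183 and 186 CPM (log2 fold change over wild type -0.10, -0.40 to 0.19, edgeR adjusted p = 0.659, 4.06% of arms passing). All 3 groups overlapped, and alg-2 over alg-1 gave -0.038 (edgeR adjusted p = 0.940, 2.03% passing). The sign of the alg-1 value turned without alg-1 replicate 3 or 4, and that of alg-2 over alg-1 without replicate 1 of either or alg-2 replicate 2. The interval for double AEDH embryos in experiment 1 (-1.03 to -0.25) overlaps both. The difference between the experiments was not tested.

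The 5p arm did not follow the guide down in double AEDH adults. In experiment 1 it had 4.47, 4.89, 5.29 and 5.64 CPM in double AEDH, against 3.39, 3.64, 5.24 and 5.32 CPM in wild-type young adults (log2 fold change 0.21, 95% confidence interval -0.30 to 0.73, edgeR adjusted p = 0.790). In experiment 2 it averaged 7.26 ± 2.66 CPM in double AEDH and 6.99 ± 1.55 CPM in wild type (n = 4 each, edgeR log2 fold change 0.075, adjusted p = 0.907). The corresponding values were 0.27 (edgeR adjusted p = 0.608) in site-deletion animals and 0.14 (edgeR adjusted p = 0.886) in ebax-1 null animals. In L4 larvae it was 4.58 ± 1.69 CPM in double AEDH and 6.20 ± 1.34 CPM in wild type (n = 3 each, edgeR log2 fold change -0.42, adjusted p = 0.562). The count of this arm was low, from 25 to 112 in any L4 or adult library.

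As a share of both arms, the 5p strand was larger in double AEDH adults of experiment 1. It was 2.06, 2.09, 2.62 and 4.46% in double AEDH, against 0.904, 1.23, 1.24 and 1.28% in wild type. The log2 of the 5p-to-3p ratio was higher by 1.23 (95% confidence interval 0.57 to 1.89, limma adjusted p = 0.0330), one of the 5.62% of 89 hairpins that passed. The exact two-sided permutation test gave p = 0.0286, the smallest it can give with 4 against 4, and 0.217 after adjustment over the 19 exact tests made. The limma call was lost without any 1 of the 4 wild-type libraries or double AEDH replicate 3 (adjusted p up to 0.122), and all same-numbered differences were upward, between 0.75 and 1.84.

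The young adults of experiment 2 showed the same direction with wider spread. The 5p share was 2.00, 2.62, 3.17 and 6.22% in double AEDH, against 1.27, 1.29, 1.71 and 2.75% in wild type. The ranges overlapped, while every same-numbered difference of the log2 ratio was upward (0.67, 1.23, 1.04 and 0.91). The difference was 0.96 (95% confidence interval 0.14 to 1.78, limma adjusted p = 0.154), where 8.79% of 91 hairpins passed. It passed neither with the replicate block nor on leaving out any library.

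In site-deletion adults the share was 2.50 to 5.04% with double AEDH and 1.10 to 3.27% without. The log2 ratio differed by 1.18 (0.36 to 2.00, limma adjusted p = 0.0568, 11% of 91 hairpins passing), was higher in all 4 same-numbered pairs, and passed with the replicate block (limma adjusted p = 0.0264), without replicate 4 of the site deletion (1.48) and without replicate 3 of the site deletion with double AEDH (1.39). In ebax-1 null adults the share was 2.02 to 5.31% with double AEDH and 1.18 to 2.75% without, a difference of 0.96 in the log2 ratio (0.14 to 1.78, limma adjusted p = 0.103, 17.6% passing). Same-numbered differences there went both ways, at 1.14, 0.99, 2.03 and -0.30 (replicates 1 to 4). Leaving out 1 library gave group differences from 0.70 to 1.29. Only the fit without replicate 4 of the ebax-1 null with double AEDH passed (1.29, limma adjusted p = 0.0280). The site deletion and the ebax-1 null themselves changed the ratio by 0.074 (limma adjusted p = 0.9997) and 0.30 (limma adjusted p = 0.794) over wild type. No hairpin passed for the site deletion (0 of 91 with limma, 6 at an unadjusted p under 0.05), and 11% passed for the ebax-1 null.

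**Figure D5:**
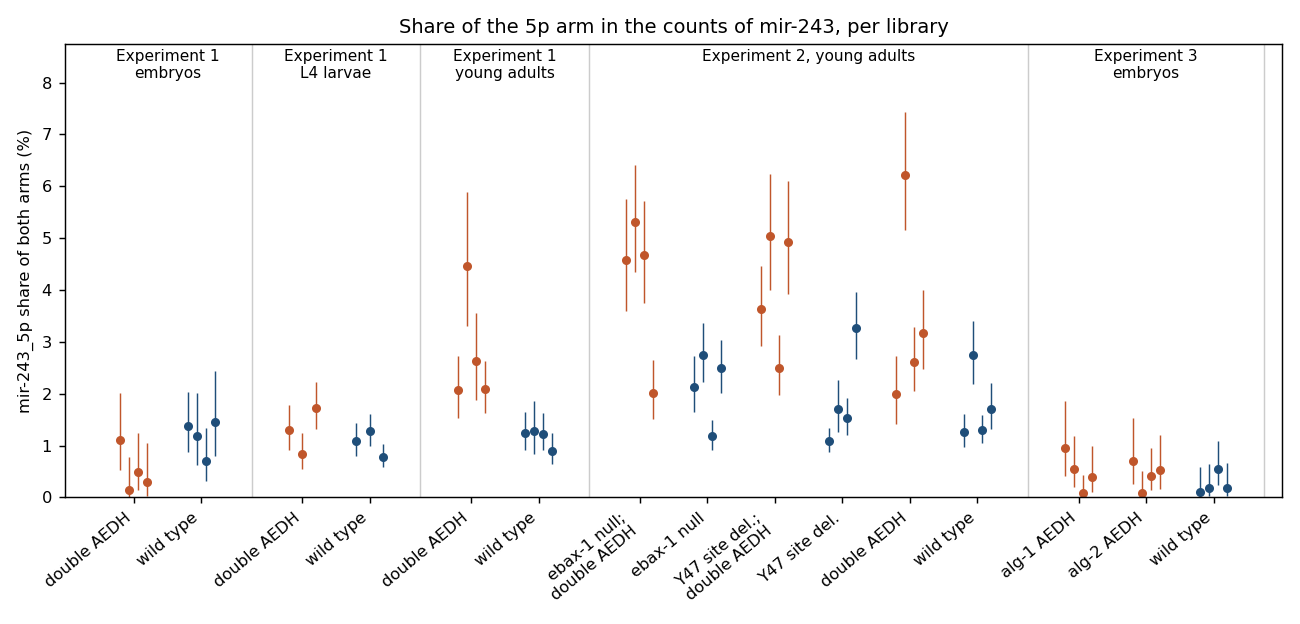
Share of mir-243_5p in the counts of both mir-243 arms, in percent, for each library, with exact 95% binomial intervals that cover counting error only; orange marks groups with an AEDH allele. In young adults most orange points lie above the blue points of the same background. In embryos of experiment 1 most orange points lie below the blue points, with overlapping ranges, on 1 to 10 counts of the 5p arm.

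At the other stages of experiment 1 no rise of the share with double AEDH was detected. In L4 larvae it was 0.843, 1.29 and 1.73% in double AEDH, against 0.783, 1.08 and 1.28% in wild type (log2 ratio difference 0.28, limma adjusted p = 0.671, 12.2% of 90 hairpins passing). Same-numbered differences went both ways, from -0.59 to 1.15. In embryos it was 0.140, 0.289, 0.490 and 1.10% in double AEDH, against 0.706, 1.18, 1.37 and 1.46% in wild type. The embryo counts of the 5p arm were 10, 1, 4 and 2 in double AEDH and 24, 13, 9 and 14 in wild type (replicates 1 to 4), too few for the limma fit of that stage. The mean log2 ratio was lower by 1.34 in double AEDH embryos, with an exact two-sided permutation p of 0.0571 (0.217 adjusted over 19 tests), and it was lower in all 4 same-numbered pairs. With 5 added to each count in place of 0.5 the difference was -0.49.

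In experiment 1 the arm ratio with double AEDH thus lay higher in all 4 same-numbered pairs of young adults. In all 4 pairs of embryos it lay lower. The difference between these effects was 2.57 on the log2 scale with 0.5 added to each count and 1.69 with 5 added. It is given without a test, because the embryo side holds 17 counts of the 5p arm in double AEDH and 60 in wild type, below the filter of the embryo fit. Within double AEDH animals the mean log2 ratio was higher in young adults than in embryos by 2.55, and by 1.43 with 5 added. Young adults and embryos also differed in temperature. Changes of the ratio were common between these stages, since 62 of 92 hairpins passed with limma in either direction. The median difference over those hairpins was -0.96. The exact two-sided permutation p was 0.0286, the smallest that 4 against 4 can give, and 0.217 adjusted over the 19 tests. In wild type the same difference was -0.016. L4 larvae over embryos gave 1.43 in double AEDH (0.35 with 5 added, exact two-sided permutation p = 0.114) and -0.19 in wild type. Young adults over L4 larvae gave 1.128 in double AEDH (limma adjusted p = 0.0738, 19.6% passing) and 0.17 in wild type (limma adjusted p = 0.807, 28.3% passing).

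In the embryos of experiment 3 the 5p arm was near the limit of detection, with 1 to 8 counts in each of the 12 libraries. Its share was 0.0776 to 0.946% in alg-1 AEDH, 0.0927 to 0.708% in alg-2 AEDH and 0.107 to 0.556% in wild type. The groups overlapped, and the exact two-sided permutation p was 0.400 for alg-1 and 0.429 for alg-2 over wild type (both 0.645 adjusted over 19 tests). A difference between these groups was not detectable at this depth.

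Across the 15 group means, the arm whose log2 level was most like that of mir-243_3p was mir-789-1_5p (Pearson r = 0.93 over 172 arms compared, whose median r was 0.32). It averaged 19.5 ± 2.61 CPM in double AEDH and 35.4 ± 1.21 CPM in wild-type L4 larvae (n = 3 each), and 3.34 ± 0.238 CPM in double AEDH and 4.96 ± 0.581 CPM in wild-type embryos of experiment 1 (n = 4 each). In young adults of experiment 1 it averaged 15.1 ± 2.39 CPM in double AEDH and 20.7 ± 1.02 CPM in wild type. In those of experiment 2 the means lay closer, at 16.95 ± 5.87 CPM in double AEDH and 20.3 ± 5.47 CPM in wild type (n = 4 each). mir-248_3p (r = 0.85), mir-66_5p (0.85), mir-791_3p (0.83) and mir-63_3p (0.82) followed, and the 5p arm of mir-243 itself had r = 0.67. Within groups the likeness was to other arms. Over the 58 deviations from the group means, mir-1820_5p (r = 0.71), mir-57_5p (0.65), mir-61_3p (0.63), mir-50_5p (0.61) and mir-228_5p (0.60) were nearest, while mir-243_5p had r = -0.10. The points of each correlation share libraries, depth and, in experiment 2, replicate number, so these values describe the libraries.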

How the data were processed

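Small RNAs of whole C. elegans were sequenced. The submitters' processing notes name HTSeq 0.13.5, Bowtie2 2.4.4, cutadapt 3.4, DESeq2 and SAMtools 1.13 as the authors' tools, with settings not given in the sources used here. Per the file header, the annotation is MirGeneDB on ce11. The deposited values are estimated counts per miRNA arm: 5.67% end in 0.5 (in 7 libraries for both mir-243 arms), and these were rounded up. Reads without a feature (11.9 to 44.6% of the table's counts) and 10 spike-ins were kept out of library totals.

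All 276 arms were fitted with edgeR 4.0.16 (quasi-likelihood, TMM, filterByExpr with a minimum count of 10), adjusted by Benjamini-Hochberg over all arms tested, with a threshold of 0.05. Comparisons of double AEDH with wild type in experiment 1 were fitted per stage; stage changes used its 6 groups, and experiments 2 and 3 used all their groups. The log2 ratio of 5p to 3p counts, 0.5 added to each, was tested with limma 3.58.1 (trend on abundance, robust) over hairpins with a mean of at least 10 in both arms, and with exact permutation tests. R was 4.3.3. Scripts were tested on simulated data.

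Alternatives were DESeq2 1.42.0 and its size factors, total counts, spike-in totals (not in experiment 3, which had 16 to 48 spike-in counts a library), no filter, other added counts, other groups in the fit, the replicate block, and leaving out each library. Replicate numbers come from the titles. Same-numbered libraries deviated together (every pair's r over 0.1 across 173 arms) in the 3 double AEDH comparisons of experiment 1 (r 0.22 to 0.89), in all comparisons among wild type, double AEDH and the site deletions of experiment 2 (0.19 to 0.75), and for alg-1 AEDH over wild type (0.20 to 0.66). No replicate pair agreed within sampling noise (chi-square per degree of freedom at least 122 over 84 pairs). The 2 arms, the lists and the comparisons were chosen with earlier results of these data known. The arms named as most like mir-243_3p are the 5 of highest Pearson r. Binomial intervals of shares and limits from 3 counts cover counting error only, while intervals of fold changes and ratio differences come from the spread between libraries.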

Additional observations from a re-analysis of the deposited data

Results flagged for a closer look

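In 8 of 52 groups of values, 1 library stood apart from the other 3 of its group by more than Dixon's 95% criterion. The values were the levels of both arms, the 5p share and the log2 ratio, which rest on the same counts. The 52 are thus not independent, and the number of flags was not compared with chance. Wild-type young adult replicate 4 of experiment 1 had the lowest 5p share of its group, 0.904%, and the lowest log2 ratio of 5p to 3p, -6.76. The ebax-1 null with double AEDH had its lowest log2 ratio, -5.59, in replicate 4. The site deletion with double AEDH had its highest mir-243_5p level, 10.3 CPM, in replicate 4, and the ebax-1 null its highest mir-243_3p level, 446 CPM, in replicate 3. In experiment 3, wild-type replicate 3 had the highest mir-243_5p level, 1.22 CPM, and the highest share, 0.556%, on 8 counts, and alg-1 AEDH replicate 1 had the lowest mir-243_3p level, 154 CPM.

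Double AEDH over wild type gave a log2 arm ratio difference of 1.23 in young adults of experiment 1, higher in 4 of 4 same-numbered pairs, and of -1.34 in embryos, lower in 4 of 4 pairs. The effects thus lay 2.57 apart on the log2 scale, and 1.69 apart with 5 added to each count, where the embryo value was -0.49. No test of this difference is given, since the embryo side rests on 17 counts of the 5p arm over the 4 double AEDH libraries and 60 over the 4 wild-type libraries, below the filter of the embryo fit.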

How the results depend on the processing

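The fall of mir-243_3p with double AEDH kept its direction in all 6 comparisons under every alternative run, while its call moved. In experiment 1 young adults it passed with DESeq2 size factors, DESeq2, the replicate block and all 6 groups in the fit (-1.002, -1.002, -0.996 and -1.003); L4 larvae did not pass with spike-in totals (-0.74), nor embryos with spike-in totals (-0.82), without the filter (-0.59) or with all 6 groups (-0.55). In the site deletion the block gave -0.87. The ebax-1 null passed with total counts (-0.84), spike-ins (-0.99), DESeq2 (-0.81) and the block (-0.75), although its numbers did not pair the libraries (r -0.56 to -0.22). The block changed no other guide call.

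Spike-in totals turned the sign of uncalled guide values: ebax-1 null over wild type (0.36), the same within double AEDH (0.33), the ebax-1 interaction (-0.033), and the interactions of L4 (0.081) and young adult (0.054) over embryo. For the 5p arm they gave -0.13 (double AEDH young adults over L4), -0.083 (double AEDH within ebax-1 null), -0.17 (ebax-1 interaction) and 0.76 (ebax-1 null over wild type). That last value, -0.014 as reported and -0.018 with the block, was also above 0 with total counts (0.011), DESeq2 size factors (0.024), no filter (0.025) and DESeq2 (0.025).

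For the ratio, experiment 1 young adults did not pass with a mean count of at least 1 (1.23, limma adjusted p = 0.0599). With 5 added, values that rest on embryo counts were smaller: 0.35 against 1.43 for double AEDH L4 over embryo (p = 0.114 by the exact permutation test), 1.43 against 2.55 for young adults over embryo, and -0.49 against -1.34 for double AEDH over wild type in embryos. Double AEDH young adults over L4 passed with 5 added (1.08). The site deletion passed with 5 added (1.17) and with the block (1.18). The ebax-1 interaction turned to -0.00042 and -0.0065 with 1 and 5 added.

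Leaving out 1 library gave these ranges. For the guide with double AEDH: young adults of experiment 1 -1.12 to -0.89, L4 -0.79 to -0.71, embryos -0.73 to -0.45, experiment 2 -1.20 to -0.77, ebax-1 null -1.12 to -0.61. Other guide values: wild-type young adults over L4 -0.64 to -0.44, ebax-1 null within double AEDH -0.42 to 0.063, site deletion within double AEDH -0.26 to 0.14, ebax-1 interaction -0.12 to 0.42, site interaction -0.11 to 0.35, alg-1 AEDH -0.18 to 0.0097, alg-2 over alg-1 -0.088 to 0.060. Ratio with double AEDH: young adults of experiment 1 0.97 to 1.36, site deletion 0.95 to 1.48, ebax-1 null 0.70 to 1.29, ebax-1 interaction -0.27 to 0.33, site interaction -0.029 to 0.55. Other ratios: wild-type L4 over embryo -0.41 to 0.0058, young adults over L4 -0.022 to 0.33 and over embryo -0.24 to 0.11, double AEDH L4 over embryo 1.04 to 1.86, site deletion -0.23 to 0.32, alg-2 over alg-1 -0.65 to 0.48.

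Counts of arms called ranged, over the alternatives that kept all libraries, from 0 to 16 (3 in the reported fit) in young adults of experiment 1, 2 to 26 (11) in L4 and 12 to 62 (24) in embryos. In experiment 2 they ranged from 4 to 23 (18) for double AEDH, 2 to 20 (16) in the site deletion, 11 to 34 (25) in the ebax-1 null and 37 to 107 (49) for ebax-1 null over wild type, and in experiment 3 from 1 to 8 (1) for alg-1 AEDH, 7 to 29 (8) for alg-2 AEDH and 3 to 16 (4) between them. The cause was not tested. The 5p arm had 1 to 24 counts in any embryo library, which limits its values there.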
